A study of Mus musculus with 9 samples.

Results

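The SLC25 proteins are the mitochondrial carriers, a family that moves metabolites across the inner mitochondrial membrane, and their transcripts were followed here in mouse tibialis anterior, a fast muscle of the lower leg. The members were every gene whose symbol in the deposited tables is Slc25a followed by a number. There were 43 such genes among the 14971 listed protein-coding genes, 42 of them in both tables of the series. Slc25a41 was listed only for Control and ORX.

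Carriers of this family share 1 fold, in which a repeated module wraps around a central binding site that opens to either side of the membrane in turn. In skeletal muscle the best known is the adenine nucleotide translocator, which exports ATP made by the respiratory chain and brings ADP back in, together with the phosphate carrier that supplies the other substrate of ATP synthase. Others pass aspartate and glutamate, oxoglutarate, acylcarnitines, branched-chain amino acids, coenzyme A, NAD, iron or glutathione, and a few are named after the uncoupling proteins whose sequence they resemble.

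The study removed the testes of male C57BL/6J mice (orchiectomy, ORX), gave some of these mice dihydrotestosterone (ORX+DHT), a potent androgen that activates the androgen receptor directly, and kept mice that were not orchiectomised (Control, called Sham in the tables). Muscles were taken 4 weeks after treatment and polyA RNA was sequenced, with 3 libraries per group and 9 in all. The labels number the libraries as biological replicates and do not say which animal each came from, so p-values measure the spread between these samples. The design allows 3 comparisons, of the ORX group with Control and of the ORX+DHT group with ORX and then with Control. The first and second share the ORX libraries, and both comparisons of ORX+DHT share its libraries, so they are not independent of each other.

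Values are normalised counts, which are reads divided by a scaling factor of each library. Libraries held 1340209 to 1682235 reads over the listed genes, so a carrier with a normalised count of 15 rests on about as many reads. Library 1 of the Control group stood apart. Its chi-square per degree of freedom against the other Control libraries was 12.8 and 13.2, while every other pair within a group was between 1.82 and 3.37. The muscle was fast by its markers: the summed level of 6 fast fibre genes was between 157189 and 195085 in every library, and that of 5 slow fibre genes between 15.2 and 50.1. The summed level of 5 fibroblast markers was higher in the ORX libraries (3375 to 4351) than in Control (1442 to 2878) or ORX+DHT (1644 to 2302). Most of this sum was Col1a1 and Col1a2, with ORX means of 1682 and 1594. Dcn had means of 350, 398 and 377 in Control, ORX and ORX+DHT, and Pdgfra of 20.3, 19.2 and 17.8, with all groups overlapping. In whole muscle, fewer cells of a type and less RNA per cell cannot be told apart.

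Slc25a4 dominated the family. It encodes the heart and muscle isoform of the adenine nucleotide translocator (ANT1), and its level per length, averaged over all libraries, was 3163 normalised counts per kb of exon. The phosphate carrier Slc25a3 followed at 328 per kb, the oxoglutarate carrier Slc25a11 at 274 per kb and the aspartate/glutamate carrier Slc25a12 at 147 per kb. The next, the second translocator isoform Slc25a5, was at 33.3 per kb. Slc25a30 ranked 28 of 43 at 5.25 per kb, and the last was Slc25a43 at 0.06 per kb. Slc25a4 alone made up 55.1% to 67.6% of the summed level of the family in a library, and the family took 0.738% to 1.09% of a library's reads.

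**Figure D1:**
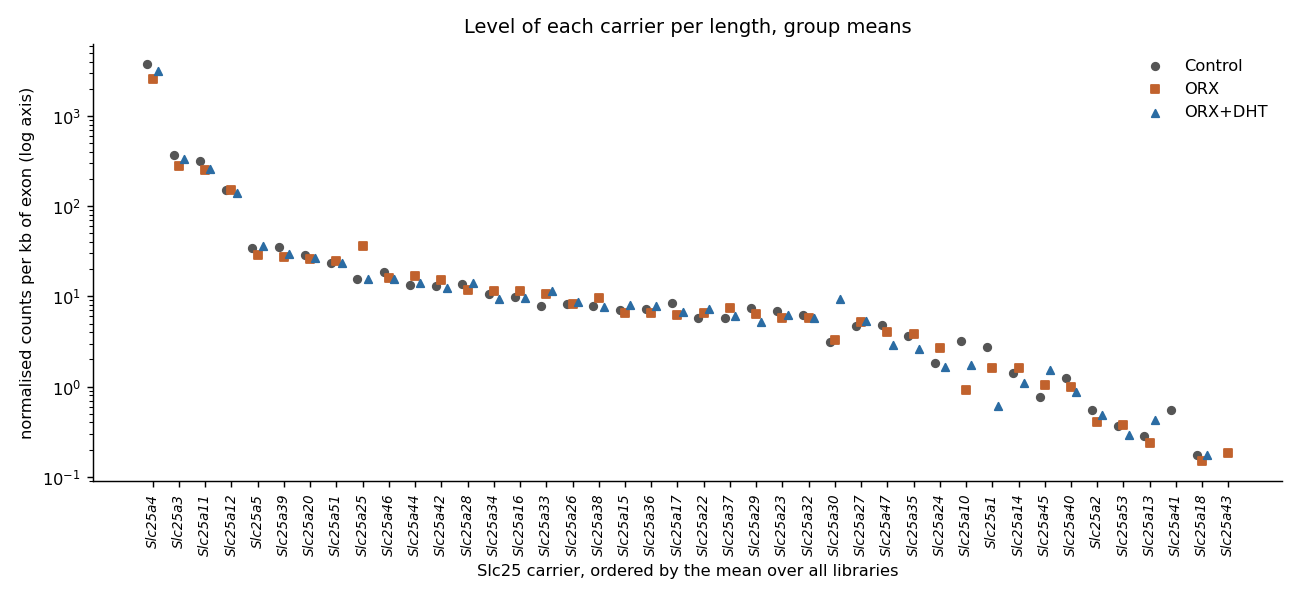
Level of 42 of the 43 Slc25 carriers, as the group mean of normalised counts per kb of exon on a log axis, for Control (circles), ORX (squares) and ORX+DHT (triangles). Means of 0 are not drawn (Slc25a41 in ORX, Slc25a43 in Control and ORX+DHT), and Slc25a41 has no ORX+DHT value. Slc25a4 lies far above the rest, and Slc25a30, at rank 28, has an ORX+DHT mean above both of its other means.

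Each comparison was tested with limma over all genes with a mean of at least 10, and the threshold for a call was an adjusted p of 0.05 over all of them. Of the 43 carriers, 31 reached this level in each comparison. The 12 that did not were Slc25a1, Slc25a2, Slc25a10, Slc25a13, Slc25a14, Slc25a18, Slc25a24, Slc25a40, Slc25a41, Slc25a43, Slc25a45 and Slc25a53. None of these had more than 18 reads in a library. They are counted as not tested.

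Supplying DHT to orchiectomised mice raised 2 of the 31 tested carriers, Slc25a30 and Slc25a4, and lowered none (limma, adjusted p). Of the carriers, edgeR and DESeq2 called Slc25a30 alone in this comparison. Over all genes 4.08% passed the limma test in ORX+DHT against ORX, 2.38% upward. At an unadjusted p under 0.05 there were 5 carriers, Slc25a30, Slc25a4 and Slc25a3 upward and Slc25a25 and Slc25a42 downward, beside 14.3% of all genes. The median log2 fold change of the 31 carriers was 0.02, beside 0.01 over all 8770 genes tested, with 17 carriers above 0 and 14 below. The median size of a carrier's change, whatever its sign, was 0.24, beside 0.17 over all genes. Orchiectomy alone gave no called carrier, with 0 of 31 by limma, 0 by edgeR and 0 by DESeq2. In ORX against Control, 0.0579% of all genes were called, and 1 carrier (Slc25a4) had an unadjusted p under 0.05, where 7.21% of all genes did. Against Control, the ORX+DHT group had 0 called carriers by limma, 0 by edgeR and 1 (Slc25a30) by DESeq2. There, 0.0349% of all genes were called by limma, and 1 carrier (Slc25a30) had an unadjusted p under 0.05, beside 6.48% of all genes.

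**Figure D2:**
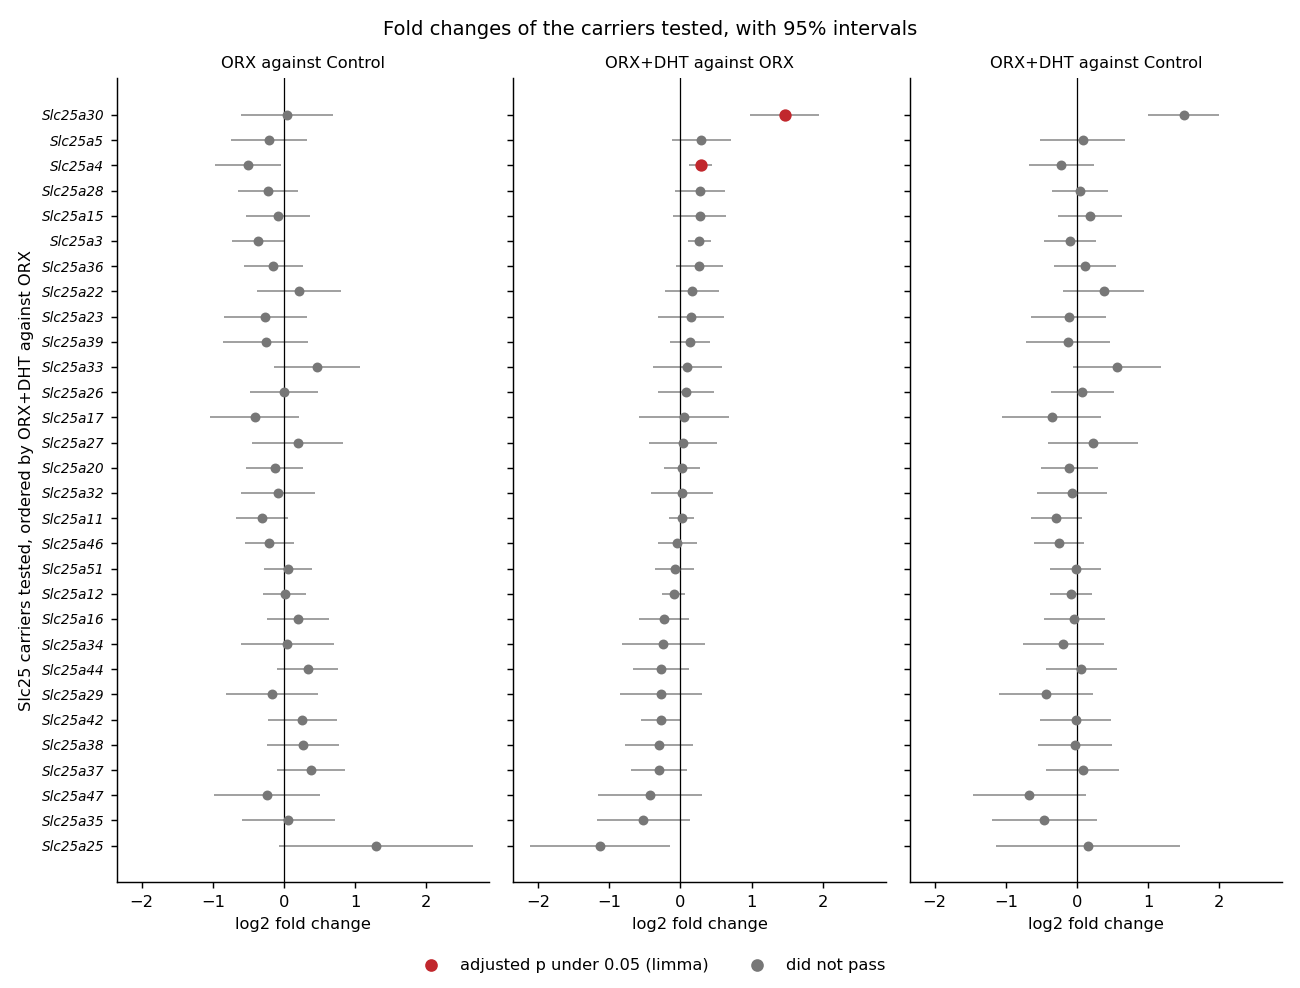
Fitted log2 fold change (points) with its 95% interval (lines) for 30 of the 31 carriers tested, in each of the 3 comparisons, ordered by ORX+DHT against ORX. Red points passed at an adjusted p under 0.05 (limma): Slc25a30 at 1.46 and Slc25a4 at 0.28 in ORX+DHT against ORX, and none in the other comparisons.

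The carriers named after uncoupling proteins hold the gene with the largest rise. Slc25a30 (ENSMUSG00000022003, chr14:75760117-75787037, minus strand, GRCm38) encodes kidney mitochondrial carrier protein 1, also called UCP6, a carrier of inorganic anions such as sulfate and thiosulfate and of some dicarboxylates. Its normalised counts were 16.2, 12.2 and 14.9 in Control libraries 1 to 3, 16.7, 17.9 and 10.8 in ORX, and 40.5, 46.4 and 40.5 in ORX+DHT. These are few reads: 13, 11 and 15 in Control, 17, 21 and 13 in ORX, and 40, 48 and 41 in ORX+DHT. All ORX+DHT libraries lay above all others, and the Control and ORX libraries overlapped.

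Group means of Slc25a30 were 14.4 ± 2.07 for Control, 15.1 ± 3.83 after ORX and 42.5 ± 3.40 with DHT (SD, n = 3). In ORX+DHT against ORX the log2 fold change was 1.46 (SE 0.23, 95% interval 0.98 to 1.95, limma adjusted p = 0.000665), a 2.76-fold rise on the log2(value + 1) scale and number 51 of 8770 genes by size. ORX differed from Control by 0.04 on the log2 scale (95% interval -0.61 to 0.69, limma adjusted p = 0.981). Against Control the log2 fold change was 1.5 (SE 0.23, 95% interval 1.0 to 2.0), number 12 of 8595 by size, with an unadjusted p of 3.40e-05 and a limma adjusted p of 0.0584. That last value missed the threshold and passed it at 0.00286 when Control library 1 was left out, where the log2 fold change was 1.59. When an ORX+DHT library was left out, the limma adjusted p was 0.395 to 0.523.

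Among the other 30 tested carriers, the log2 fold changes of ORX+DHT against ORX ran from -1.13 (Slc25a25) to 0.29 (Slc25a5). The highest upper 95% limit among them was 0.71 (Slc25a5), below the lower limit of Slc25a30. Slc25a30 has 2 relatives among the carriers. Slc25a27 (UCP4) had group means of 18.5, 20.6 and 21.1 normalised counts in Control, ORX and ORX+DHT, and its ORX+DHT against ORX log2 fold change was 0.04 (95% interval -0.44 to 0.52). Slc25a14 (UCP5) was below the level for testing, with means of 3.35, 3.82 and 2.61. The uncoupling proteins that carry other symbols gave no call either. Ucp3, the muscle uncoupling protein, had means of 289, 418 and 327 (ORX+DHT against ORX -0.35, limma adjusted p = 0.172), and Ucp2 had means of 21.5, 23.1 and 26.7 (0.28, limma adjusted p = 0.710).

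**Figure D3:**
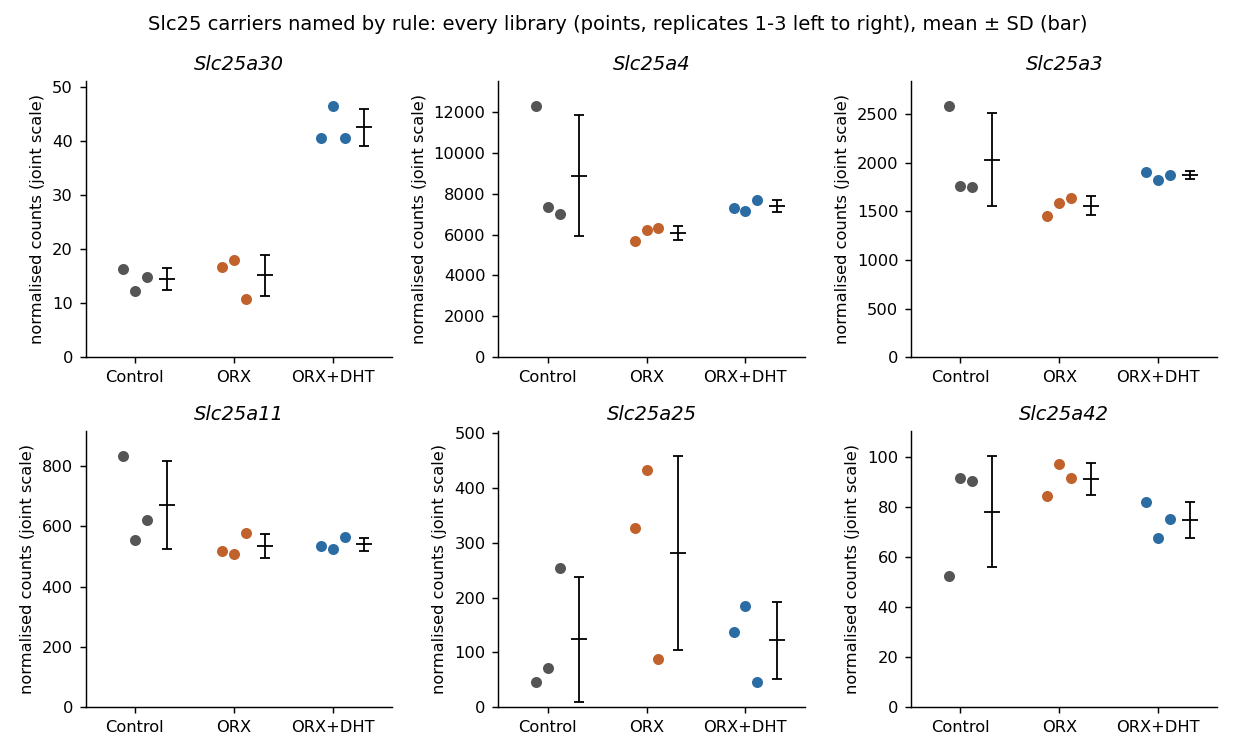
Normalised counts of 6 carriers in every library, with points for replicates 1 to 3 of each group from left to right and bars for the mean ± SD (n = 3). Slc25a30 is the 1 panel in which all ORX+DHT points lie above both other groups; in the Slc25a4, Slc25a3 and Slc25a11 panels the highest point is Control library 1.

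The bases before a gene's start are shown for 3 carriers, the 2 that were called and the most variable one (Slc25a25, described further on), so that short motifs can be seen in place. Each is the 250 bases before the start in RefSeq's GRCm38.p6 annotation, on the gene's own strand, minus in each case. Capitals mark matches to CCAAT on either strand (written ATTGG where it lies on the other) and to TGACGTCA, the cyclic AMP response element. The windows are chr14:75787038-75787287 for Slc25a30, chr8:46211063-46211312 for Slc25a4 and chr2:32424067-32424316 for the annotated start of Slc25a25 that lies furthest into the gene. In the GENCODE annotation used for gene coordinates, Slc25a4 begins at 46211284. The annotations therefore differ on its start, and its window overlaps the gene as GENCODE gives it.
Slc25a30: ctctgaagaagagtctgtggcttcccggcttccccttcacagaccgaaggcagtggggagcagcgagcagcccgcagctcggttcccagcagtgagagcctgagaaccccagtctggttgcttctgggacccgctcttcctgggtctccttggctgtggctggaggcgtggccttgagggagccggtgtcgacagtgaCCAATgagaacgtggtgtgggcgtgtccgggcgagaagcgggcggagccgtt
Slc25a4: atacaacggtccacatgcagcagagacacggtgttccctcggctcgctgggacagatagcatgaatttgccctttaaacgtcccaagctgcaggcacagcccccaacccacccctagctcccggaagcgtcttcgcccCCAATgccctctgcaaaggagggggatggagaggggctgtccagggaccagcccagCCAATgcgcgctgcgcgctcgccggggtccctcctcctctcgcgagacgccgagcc
Slc25a25: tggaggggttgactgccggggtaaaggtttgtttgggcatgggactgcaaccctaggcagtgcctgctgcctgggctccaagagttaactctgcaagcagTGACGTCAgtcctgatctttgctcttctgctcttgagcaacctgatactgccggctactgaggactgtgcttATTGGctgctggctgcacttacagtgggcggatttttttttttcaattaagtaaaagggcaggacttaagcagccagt
Slc25a30 held 1 CCAAT, 52 bases before its start, Slc25a4 held 2, at 112 and 56 bases, and the Slc25a25 window shown held the response element at 150 bases and 1 CCAAT at 78 bases. It was chosen for that match: the windows of the other 2 annotated starts of Slc25a25 held 3 and 2 CCAAT and lacked the response element. CCAAT occurred in 33.9% of all 32851 windows of that length and in 20 of the 41 windows of the 32 carriers with an entry (48.8%). The full androgen response element, searched as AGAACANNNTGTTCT on both strands, was in 3 of all windows (0.00913%) and in 0 of the carriers' windows. The 6 bases that this element repeats, AGAACA, were in 16.1% of all windows and in 3 of 41 carrier windows (Slc25a17, Slc25a43 and Slc25a45). TGACGTCA was in 1.55% of all windows and in 2 of 41 (Slc25a25 and Slc25a36). The estrogen-related receptor motif TNAAGGTCA was in 1.14% of all windows and in 0 of the carriers'. A match describes letters in the window and is no evidence of binding, and a missing match says only that these letters are not in it.

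Adenine nucleotide carriers came next. Slc25a4 (ENSMUSG00000031633, chr8:46206797-46211284, minus strand) was at 12282, 7363 and 6986 normalised counts in Control, 5677, 6204 and 6323 in ORX, and 7284, 7159 and 7704 in ORX+DHT. The ORX libraries were the lowest 3 of the 9, and no ORX library overlapped either other group. ORX+DHT and Control overlapped, and Control library 1 was far above the rest.

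Group means of Slc25a4 were 8877 ± 2955 for Control, 6068 ± 344 after ORX and 7382 ± 286 with DHT (SD, n = 3). DHT raised it by 0.28 on the log2 scale over ORX (SE 0.08, limma adjusted p = 0.0423), a 1.22-fold change. This call is close to the threshold: it was not made by edgeR (adjusted p = 0.0527) or DESeq2 (0.0858), nor when any of 5 of the 6 libraries was left out (0.0858 to 0.185), all but ORX library 3. For ORX against Control the log2 fold change was -0.50 (SE 0.21, unadjusted p = 0.0361, limma adjusted p = 0.675), and it was -0.24 without Control library 1 (limma adjusted p = 0.296). Against Control the ORX+DHT group differed by -0.22 (limma adjusted p = 0.820). The second isoform, Slc25a5 (ANT2), had means of 57.0, 47.5 and 59.9 and was not called in any comparison. These isoforms are close in sequence, and how reads that match both were counted is not given in the sources used here.

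Slc25a3, the phosphate carrier, ran in the same order. Its values were 2583, 1757 and 1752 in Control, 1448, 1585 and 1639 in ORX, and 1907, 1826 and 1877 in ORX+DHT. ORX libraries were again the lowest 3 with no overlap. The log2 fold change was 0.27 in ORX+DHT against ORX (SE 0.08, limma adjusted p = 0.0594), which missed the threshold, and it passed without ORX library 3 (0.0413). In ORX against Control it was -0.36 (limma adjusted p = 0.695), and -0.17 without Control library 1.

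Other mitochondrial transcripts were read beside Slc25a4 and Slc25a3. A list of 14 genes of mitochondrial content (respiratory chain subunits, citrate synthase, ATP synthase subunits and regulators of mitochondrial biogenesis) had a summed level of 24300 to 30272 in Control, 21019 to 23773 after ORX and 24056 to 25493 with DHT. In ORX against Control 14 of 14 had a log2 fold change below 0, with a median of -0.21 and 0 called by limma. Over all genes the median was -0.01, and 48.9% were above 0. Control library 1 held the sum of 30272, where the other Control libraries were at 24300 and 25098. The fold changes of this list were not refitted without that library. In ORX+DHT against ORX 12 of 14 were above 0, with a median of 0.13, beside 0.01 over all genes, and 1 was called. The called gene was Ppargc1a, a coactivator of mitochondrial biogenesis, at 0.60 on the log2 scale (limma adjusted p = 0.0130, but 0.104 by DESeq2, 0.0733 without ORX+DHT library 1 and 0.0564 without ORX+DHT library 2). The summed level of the Slc25 family itself was 12031 to 18164 in Control, 10297 to 11181 after ORX and 11993 to 12490 with DHT. In both sums every ORX library lay below every library of the other groups, and neither sum was tested. Slc25a4 alone made up 55.1% to 67.6% of the family sum in a library, so that sum mostly follows this gene. In ORX against Control 14 of the 31 tested carriers had a log2 fold change above 0 and 17 below, with a median of -0.09. In ORX+DHT against ORX 17 were above 0 and 14 below, with a median of 0.02. The part of the summed content level in the values of the carriers was not tested.

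**Figure D4:**
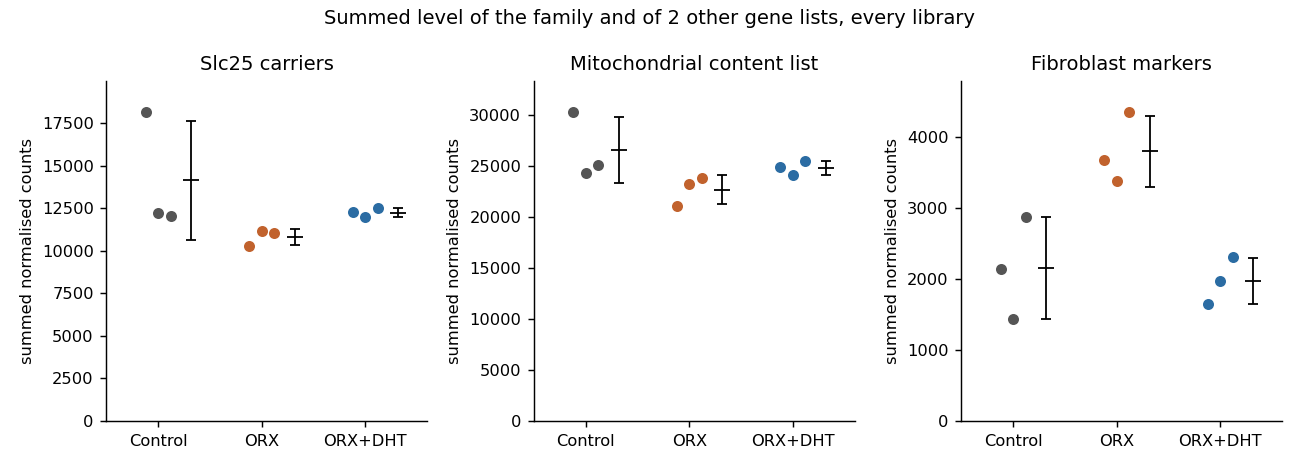
Summed normalised counts of the Slc25 carriers, of the 14-gene mitochondrial content list and of 5 fibroblast markers in every library, with bars for the mean ± SD (n = 3 per group). The ORX libraries are the lowest for the carriers and for mitochondrial content and the highest for the fibroblast markers, and Control library 1 is the highest for the carriers and for mitochondrial content. Slc25a4 alone makes up 55.1% to 67.6% of the carrier sum in a library.

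The other carriers of abundant substrates did not pass the test. Slc25a11, the oxoglutarate/malate carrier, was at 834, 553 and 622 in Control, 518, 507 and 579 in ORX, and 534, 523 and 563 in ORX+DHT. Control library 1 was the highest, and the groups overlapped in each comparison. Its log2 fold changes were -0.31 in ORX against Control (limma adjusted p = 0.714, and -0.14 without Control library 1) and 0.02 in ORX+DHT against ORX (95% interval -0.16 to 0.19). The gene shares exon bases with Rnf167 on the other strand, and whether the counting used the strand is not given in the sources used here. Slc25a12, the calcium-sensitive aspartate/glutamate carrier of the malate-aspartate shuttle, had means of 1099 ± 114, 1102 ± 45.3 and 1031 ± 18.9. Its ORX+DHT libraries lay below all ORX libraries, by -0.10 on the log2 scale (95% interval -0.25 to 0.06, limma adjusted p = 0.632). The isoform that dominates in liver, Slc25a13, had few reads, with means of 1.08, 0.896 and 1.62. Slc25a20, the carnitine/acylcarnitine carrier through which fatty acids reach oxidation, had means of 140, 126 and 128 and an ORX+DHT against ORX log2 fold change of 0.02 (95% interval -0.23 to 0.27).

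Slc25a25, a calcium-regulated carrier that exchanges ATP-Mg for phosphate, had the widest spread of any tested carrier. It was at 44.9, 71.9 and 254 in Control, 327, 432 and 86.9 in ORX, and 138, 184 and 45.5 in ORX+DHT. Every group held both high and low libraries, and all groups overlapped. The SD of its log2 values within a group was 1.28, 1.23 and 1.05 in Control, ORX and ORX+DHT, where the median over the tested carriers was 0.31, 0.18 and 0.17.

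The log2 fold changes of Slc25a25 were 1.29 in ORX against Control (limma adjusted p = 0.695) and -1.13 in ORX+DHT against ORX (SE 0.46, limma adjusted p = 0.253). The second reached -1.83 with a limma adjusted p of 0.00183 when ORX library 3 was left out. Slc25a25 (chr2:32414487-32451445, minus strand) shares exon bases with Naif1 on the other strand. The other tested ATP-Mg/phosphate carrier, Slc25a23, had means of 36.5, 30.2 and 33.0, with 0.15 in ORX+DHT against ORX (limma adjusted p = 0.827).

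All 8 carriers of cofactors and other nucleotides were tested, and none was called in any comparison. Slc25a42, which brings coenzyme A into the matrix, was at 52.4, 91.8 and 90.4 in Control, 84.4, 97.2 and 91.8 in ORX, and 82.1, 67.7 and 75.1 in ORX+DHT. Its ORX+DHT libraries all lay below its ORX libraries, by -0.28 on the log2 scale (SE 0.13, unadjusted p = 0.0491, limma adjusted p = 0.348), and Control overlapped both. Slc25a33, a pyrimidine nucleotide carrier, had means of 14.7, 20.2 and 21.8 and gave the highest value of the group against Control (0.56 in ORX+DHT, limma adjusted p = 0.736). Its ORX+DHT libraries lay above all of its Control libraries. The NAD carrier Slc25a51 had means of 131, 136 and 130. Slc25a17, Slc25a26, Slc25a32 and Slc25a36 had log2 fold changes between 0.02 and 0.26 in ORX+DHT against ORX.

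Amino acid carriers gave no call in any comparison either, with 6 of 9 tested. The glycine carrier Slc25a38, needed for heme synthesis, had means of 21.4 ± 0.894, 26.3 ± 4.46 and 21.1 ± 2.90. Its ORX libraries lay above all libraries of both other groups, with log2 fold changes of 0.27 against Control (limma adjusted p = 0.810) and -0.30 in ORX+DHT against ORX (limma adjusted p = 0.607). The branched-chain amino acid carrier Slc25a44 had means of 47.4, 59.8 and 50.2, and the log2 fold change in ORX+DHT against ORX was -0.27 (limma adjusted p = 0.557). Slc25a15, the ornithine carrier of the urea cycle, had means of 39.7, 37.2 and 45.1, and Slc25a22, a glutamate carrier, had means of 34.8, 39.5 and 43.9. The 95% intervals of their ORX+DHT against ORX log2 fold changes were -0.11 to 0.64 and -0.22 to 0.54.

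Iron and glutathione carriers were not called in any comparison. The mitoferrins, which import iron, were Slc25a37 with means of 34.7, 45.1 and 36.7 and Slc25a28 with means of 50.8, 43.6 and 52.5. The glutathione carrier Slc25a39 had means of 96.0 ± 44.3, 74.9 ± 6.29 and 82.0 ± 3.02, its Control value resting on library 1 at 145.

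The 5 tested carriers of less defined role had log2 fold changes of -0.52 to -0.04 in ORX+DHT against ORX, and none was called. Slc25a46, an outer membrane protein of the family that acts in mitochondrial shape, had means of 100.5, 86.9 and 84.5, and Slc25a16 had means of 47.8, 54.9 and 46.4. Slc25a34 was at 28.4, 30.7 and 25.0. Slc25a35, the lowest of the 5 fold changes at -0.52 (95% interval -1.17 to 0.13), had means of 13.5, 13.9 and 9.53.

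Where libraries of the groups compared did not overlap, the carriers were few and near the background. In ORX against Control these were Slc25a38 above and Slc25a3, Slc25a4 and Slc25a46 below, 4 of 31, beside 14.3% of all genes. In ORX+DHT against ORX they were Slc25a30, Slc25a4 and Slc25a3 above and Slc25a12, Slc25a38 and Slc25a42 below, 6 of 31, beside 19.5% of all genes. In ORX+DHT against Control there were 5 of 31, Slc25a30 and Slc25a33 above and 3 below, Slc25a46 and Slc25a47 among them, beside 14% of all genes. Slc25a47 lies head to head with Slc25a29 on chromosome 12, with 162 bases between them. Slc25a47 had means of 14.3, 11.9 and 8.55 and Slc25a29 of 19.1, 16.6 and 13.5, and neither was called.

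Among the untested carriers, 2 are given by their reads and were chosen after these were seen. Slc25a10, the dicarboxylate carrier, had 9, 10 and 11 reads in Control, 1, 6 and 4 in ORX and 5, 3 and 10 in ORX+DHT. Slc25a1, the citrate carrier, had 5, 4 and 7 reads in Control, 2, 4 and 6 in ORX and 1, 1 and 2 in ORX+DHT. With no minimum level, Slc25a10 in ORX against Control had a log2 fold change of -1.69 (unadjusted p = 0.00266, limma adjusted p = 0.360), and Control and ORX did not overlap. Slc25a1 in ORX+DHT against Control was at -1.58 (unadjusted p = 0.00357, limma adjusted p = 0.749). Neither passed the test.

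The proteins around the carriers were read from lists of known partners. Of 22 tested enzymes that make or use carried substrates, 2 rose and 3 fell in ORX+DHT against ORX, beside 4.08% of all genes called in either direction, and 0 were called by limma in the other comparisons. Ckmt2, the mitochondrial creatine kinase that works beside the adenine nucleotide translocator, was at 5192, 3129 and 3388 in Control, 2313, 2208 and 2365 in ORX, and 3873, 3295 and 3732 in ORX+DHT. It rose by 0.66 on the log2 scale (limma adjusted p = 3.08e-05). Alas1, which starts heme synthesis from glycine in the matrix, was at 468, 320 and 363 in Control, 243, 231 and 224 in ORX, and 367, 391 and 422 in ORX+DHT. It rose by 0.75 (limma adjusted p = 4.12e-05). In both genes the ORX libraries lay below all others.

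Gpd2, the inner membrane enzyme of the glycerol phosphate shuttle, which like the aspartate/glutamate carrier serves to bring reducing equivalents to mitochondria, fell by 0.65 on the log2 scale (limma adjusted p = 5.98e-05). Its values were 479, 579 and 526 in Control, 634, 642 and 653 in ORX, and 431, 383 and 414 in ORX+DHT, so the 3 groups did not overlap at all. The enzymes of branched-chain amino acid breakdown Bcat2 and Bckdhb fell by 0.59 (limma adjusted p = 0.0144) and 0.87 (0.00452). Bckdha, the other such enzyme listed, was not called (-0.25, limma adjusted p = 0.608). Bckdhb means were 40.5 ± 6.26 for Control, 55.4 ± 2.21 after ORX and 30.0 ± 3.13 with DHT, and Bcat2 means were 88.7 ± 9.12, 106 ± 7.71 and 70.3 ± 8.11. The Bcat2 call was lost by DESeq2 (adjusted p = 0.0873) and by limma without ORX library 2 (0.0953), ORX+DHT library 1 (0.0528) or ORX+DHT library 2 (0.0783). The branched-chain amino acid carrier Slc25a44 had its highest mean in the same group, ORX, and did not pass the test.

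Of 5 genes for the pyruvate carrier and the outer membrane channels, 2 rose in ORX+DHT against ORX, beside 2.38% of all genes. They were Mpc2, a subunit of the mitochondrial pyruvate carrier (log2 fold change 0.40, limma adjusted p = 0.0136), with means of 518, 324 and 428, and the channel Vdac2 (0.30, limma adjusted p = 0.0460), with means of 552, 438 and 541. Neither was called by DESeq2 (adjusted p = 0.0581 and 0.220). By limma, Mpc2 lost its call without ORX library 2 (0.0514) or ORX+DHT library 1 (0.103), and Vdac2 lost it without any 1 of the 6 libraries (0.0508 to 0.172). The rest of this list was not called in ORX+DHT against ORX. Mpc1, also of the pyruvate carrier, was at 0.09 (limma adjusted p = 0.881), Vdac1 at 0.01 (0.962) and Vdac3 at -0.05 (0.866). Calcium uptake genes gave 0 calls of 7 and genes for the import of carrier proteins 0 of 8, in each comparison. Genes of sulfide and thiosulfate oxidation were listed because Slc25a30 carries thiosulfate. None of 5 passed the test in any comparison, and in ORX+DHT against ORX 2 of the 5 fold changes were above 0 and 3 below. Ethe1, which oxidises persulfide, had means of 44.7, 28.3 and 38.2, with 0.43 on the log2 scale (limma adjusted p = 0.351), and Suox was at 0.07 (0.881). Tst, which transfers sulfur from thiosulfate, had means of 34.3, 28.8 and 17.8 and was lower in every ORX+DHT library than in any other, by -0.67 on the log2 scale against ORX (limma adjusted p = 0.123). Sqor, which oxidises sulfide, had means of 72.6, 75.7 and 54.0 with the same separation, by -0.48 (limma adjusted p = 0.0668). So did Mpst, with means of 89.0, 83.0 and 61.6, by -0.41 (limma adjusted p = 0.186). Of all genes, 19.5% likewise had no overlap between ORX+DHT and ORX, and 14% had none between ORX+DHT and Control. In ORX+DHT against Control all 5 fold changes of this list were below 0, with a median of -0.41 and 0 called, beside a median of -0.01 over all genes.

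**Figure D5:**
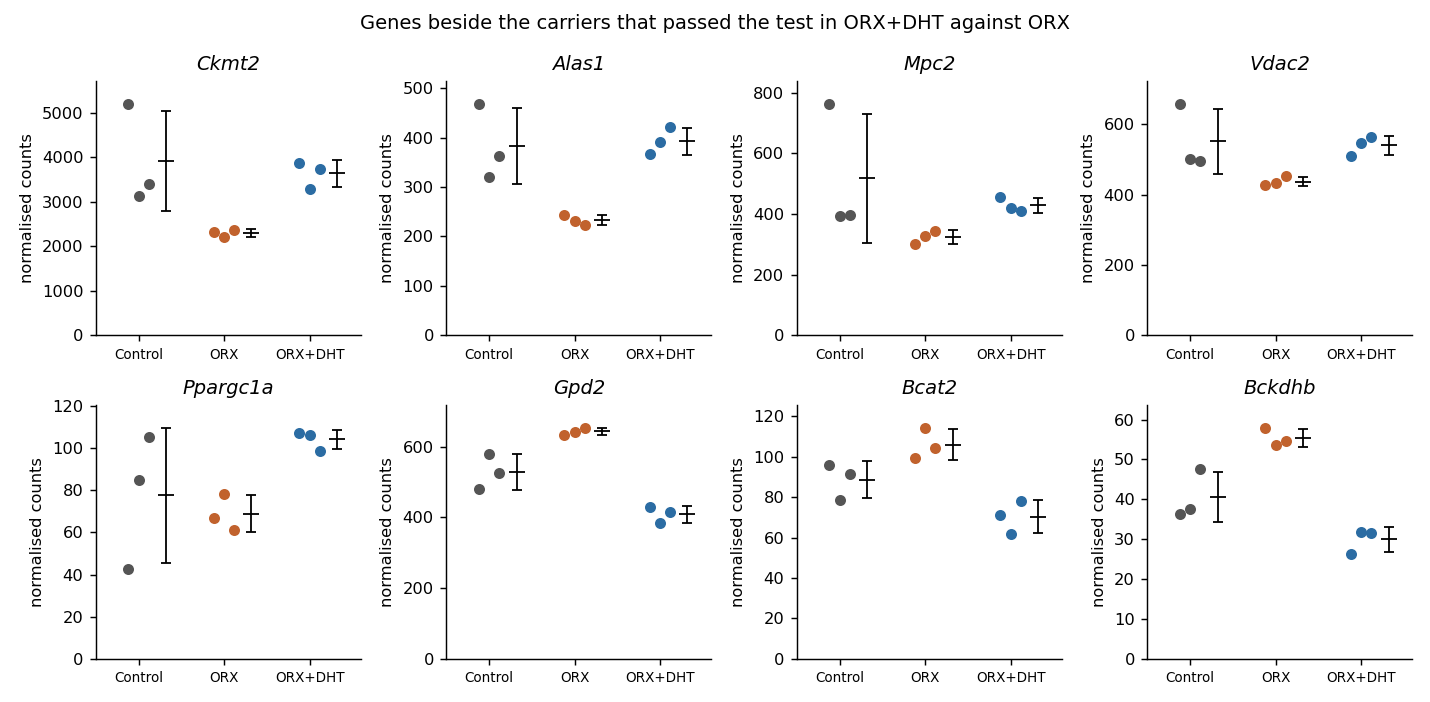
Normalised counts in every library of the 8 genes from the partner and mitochondrial content lists that passed the test in ORX+DHT against ORX, with bars for the mean ± SD (n = 3 per group). Ckmt2, Alas1, Mpc2, Vdac2 and Ppargc1a are higher in ORX+DHT than in ORX, and Gpd2, Bcat2 and Bckdhb are lower.

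Cell type markers were read beside these results. Of 6 fast fibre markers, Myh1 was called in ORX+DHT against ORX, at 0.47 on the log2 scale (limma adjusted p = 0.00755). The summed fast fibre level was 191379 to 195085 in Control and 157189 to 169599 after ORX, and that of 3 Schwann cell markers 91.8 to 96.1 and 134 to 154. Neither sum overlapped between these groups, and their part in the values of the carriers was not tested. Gene by gene, 4 of the 6 fast fibre markers were below 0 in ORX against Control and 2 above (Myh2 and Actn3), with 0 called. Myh4, the largest part of the fast fibre sum, overlapped between Control and ORX (-0.20, limma adjusted p = 0.838). Of 5 fibroblast markers, 3 fell in ORX+DHT against ORX (Col1a1, Col1a2 and Lum, by 1.18, 1.0 and 1.79 on the log2 scale), beside 4.08% of all genes called. The other 2 did not follow, with Dcn at -0.05 (limma adjusted p = 0.933) and Pdgfra at 0.06 (0.966). The part of fibroblasts in the values of the carriers was not tested. The summed level of 5 endothelial markers was 698 to 855 after ORX and 861 to 937 with DHT, and that of 3 smooth muscle and pericyte markers 1015 to 1095 and 1175 to 1215. Their part in the rise of Slc25a30 was not tested. Most of the smooth muscle and pericyte sum was Rgs5, with means of 819 in ORX and 953 in ORX+DHT. In the same groups Acta2 had means of 124 and 117, and Myh11 of 108 and 120. No endothelial or smooth muscle marker was called in ORX+DHT against ORX.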

How the data were processed

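The values deposited by the authors are a signal, reads of each gene divided by a library factor, in 1 table of Control and ORX and 1 of ORX and ORX+DHT. Per the submitters' processing notes, Trim Galore 0.6.7, HISAT2 2.2.1, featureCounts 2.0.1, DESeq2 1.36.0 and the build GRCm38 were used. The annotation is not given in the sources used here. The libraries were strand-specific, per the labels' protocols. No column was left unmapped (0). The Sham columns were taken as the Control libraries by replicate number.

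Within each column 100% of values were whole multiples of 1 step (tolerance 1e-06), so reads were recovered. The ORX columns of the tables were proportional (factor 1.06), and all 9 libraries were rescaled together by median-of-ratios factors on 14300 shared genes, the scale of all printed levels. The 2 within-table comparisons were fitted on the deposited scale and ORX+DHT against Control on the joint one. limma 3.58.1 in R 4.3.3 (mean-variance trend) was run on log2(value + 1), keeping genes whose mean was at least 10, with Benjamini-Hochberg adjustment over all genes tested. This scale understates changes of low genes. Adjusted p-values without a tool named in the sentence are limma's. It called 5, 358 and 3 genes in the order given in the text. On the recovered reads edgeR 4.0.16 called 6, 366 and 4 and DESeq2 1.42.0 28, 224 and 13. The scripts were tested on simulated data.

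Exonic lengths and coordinates came from GENCODE M21 and promoters from RefSeq. Named with the value in every library were Slc25a30, carriers called or with an unadjusted p under 0.05 in any comparison, and the 3 of highest level per length. The values of 1 carrier are not reported here, and it is left out of the figures of single carriers. Members, lists and rules were chosen with earlier results of these data known. Alternatives were pseudocounts of 0.1 and 10, no minimum or one of 50, scaling by TMM or by quantiles, 1 fit of all libraries, a replicate block, each library left out, and both count tests.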

Additional observations from a re-analysis of the deposited data

How the results depend on the processing

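No alternative turned the direction of a called carrier. In ORX+DHT against ORX the 2 called carriers became 1 (Slc25a30) with no minimum level, TMM scaling, the fit of all 9 libraries, edgeR or DESeq2, and 1 to 4 when a library was left out. They stayed 2 with either pseudocount, but were Slc25a4 and Slc25a3 at a minimum mean of 50, where Slc25a30 was not tested, and Slc25a30 and Slc25a3 with quantile normalisation. Slc25a30 was called in every setting that tested it, with log2 fold changes of 1.09 (pseudocount 10) to 1.59 and adjusted p up to 0.00719. In ORX+DHT against Control 0 called carriers became 1 (Slc25a30) with quantile normalisation, the fit of all 9 libraries, DESeq2, or without Control library 1, and the leave-one-out range was 0 to 1. Its adjusted p was 0.395 to 0.523 when an ORX+DHT library was left out. In ORX against Control no setting called a carrier, and the leave-one-out range was 0 to 0. The cause of these changes was not tested.

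The labels give each group replicate numbers 1 to 3. Deviations of same-numbered libraries correlated at -0.17 to 0.15, not all over 0.1, so the numbers were not taken to pair the samples. With the replicate block 4 carriers were called in ORX+DHT against ORX, with Slc25a3 (adjusted p = 0.00625) and Slc25a25 (-1.13, adjusted p = 6.12e-09) added, and 0 in the other comparisons. There each library correlated best with its own number, a hint from the data and not from the design.

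Over all genes the 5 calls of ORX against Control became 16 with no minimum, 23 in the fit of all libraries, 28 by DESeq2 and 1 to 51 without a library. The 358 of ORX+DHT against ORX became 123 in the fit of all libraries, 571 with the block, 224 by DESeq2 and 223 to 350 without a library, and the 3 of ORX+DHT against Control became 6 with quantile normalisation, 11 in the fit of all libraries, 13 by DESeq2 and 0 to 66. Quantile normalisation moved the upward and downward calls of ORX+DHT against ORX from 209 and 149 to 161 and 166. Vdac2 lost its call in most settings, and Mpc2, Bcat2 and Ppargc1a lost theirs in the fit of all libraries (adjusted p = 0.629, 0.0887 and 0.481), by DESeq2 and without the libraries named in the text. Ckmt2 lost it in the first of these alone (0.0705), and Alas1, Gpd2 and Bckdhb kept theirs. The 12 carriers below the minimum had at most 18 reads in a library, and what change could be detected there was not measured.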
